A study of Homo sapiens with 9 samples.

Results

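The enzymes described here remove hydrogen peroxide and superoxide or keep the peroxide-removing enzymes in their working form. They are the 6 peroxiredoxins PRDX1 to PRDX6, thioredoxin (TXN), sulfiredoxin (SRXN1), catalase (CAT) and the copper-zinc superoxide dismutase SOD1. They were taken by gene name from the gene tables of the 9 libraries, and each name matched 1 of the 58735 genes listed. The RNA came from MDA-MB-231, an established human triple-negative breast cancer line, in 3 groups of 3 libraries. Vehicle cells received DMSO. Erastin-R cells were survivors of rising amounts of erastin, which blocks the import of cystine by system xc-, and RSL3-R cells were survivors of rising amounts of RSL3, which inhibits the lipid peroxide reductase GPX4. Both compounds induce ferroptosis, a death driven by iron and oxidised lipids. All groups came from 1 cell line, and the labels give neither the dose at harvest nor whether libraries of a group came from separate cultures, so the p-values below measure only the spread between these libraries.

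Peroxiredoxins reduce peroxides with a reactive cysteine. In the 2-Cys members the oxidised cysteine is bridged to another cysteine and then reduced by thioredoxin, which thioredoxin reductase recharges with electrons from NADPH. When the reactive cysteine is oxidised further the enzyme is blocked, and sulfiredoxin can restore the typical 2-Cys members. SOD1 turns superoxide into hydrogen peroxide in the cytosol, and catalase breaks hydrogen peroxide down in peroxisomes. SRXN1, TXN, PRDX1 and the thioredoxin reductase gene TXNRD1 are known targets of NRF2, a transcription factor that binds the antioxidant response element.

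The libraries held 15405102 to 17273464 reads counted on genes, with group medians of 16514336 (vehicle), 16202711 (erastin-R) and 16017613 (RSL3-R). The epithelial and mesenchymal markers of the line, VIM, CD44, KRT18 and EGFR, were present. The oestrogen receptor gene ESR1 had 1 to 12 counts per library and the progesterone receptor gene PGR had 0 to 2, while ERBB2 was present at group means of 5.96 to 8.95 FPKM. Markers of leukocytes, endothelium and fibroblasts summed to 359 to 405 counts per library in vehicle, 185 to 239 in erastin-R and 430 to 492 in RSL3-R. Of these 10 genes, 0 were at 0 in every library, although CD3E, CDH5, LUM and PDGFRA had at most 4 counts and COL1A1 and PECAM1 reached 205 and 222. The part of these genes in the results below was not tested. Erastin-R replicate 1 stood apart from the other erastin-R libraries on the third principal component (score -35.7 against 14.4 and 13.0, 6.72% of the variance). It also lay below them on the first (36.3 against 51.1 and 49.8, 42.4%) and the second (8.30 against 19.0 and 19.7, 33.1%). Values without it are given beside the results whose call or sign it changed. They are also given for SRXN1, PRDX3, SOD2 and FTH1, in which it was the lowest of its group. It was the lowest in other genes given without such a value too, among them TXN, TXNRD3 and MSRB1. In bulk RNA, fewer cells making a transcript and less transcript per cell cannot be told apart.

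Per length, TXN was the most abundant of the 10 transcripts in each group, with 222 ± 7.93 FPKM in vehicle, 255 ± 12.2 in erastin-R and 160.3 ± 5.25 in RSL3-R (mean ± SD, n = 3). In vehicle cells it was followed by PRDX1 (150.3 ± 3.82 FPKM), PRDX6 (101 ± 1.33), PRDX5 (73.4 ± 5.41), PRDX2 (58.9 ± 2.34) and PRDX3 (47.4 ± 1.0). SOD1 (43.4 ± 3.17), PRDX4 (24.5 ± 0.362), CAT (18.8 ± 0.924) and SRXN1 (2.27 ± 0.345) were lower, and no neighbours in this order overlapped. Erastin-R cells kept the same order except that PRDX3, PRDX2 and SOD1 lay at 42.1 ± 5.54, 39.3 ± 3.56 and 38.9 ± 1.2 FPKM and the ranges of adjacent genes overlapped. In RSL3-R cells PRDX5 (92.9 ± 3.24 FPKM) stood level with PRDX6 (91.4 ± 1.72), with overlapping ranges. This order depends on the lengths used, which count all annotated exon bases of a gene (893 for PRDX5, 1142 for TXN, 2367 for PRDX6). By CPM, without length, PRDX6 in RSL3-R cells (mean 218) was above TXN (184) and PRDX5 (83.6). The SRXN1 level per length is uncertain, because 2292 of its 2698 exon bases (85.0%) are shared on the same strand with a second annotated gene, AL121758.1, which had 0 or 1 count per library.

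**Figure D1:**
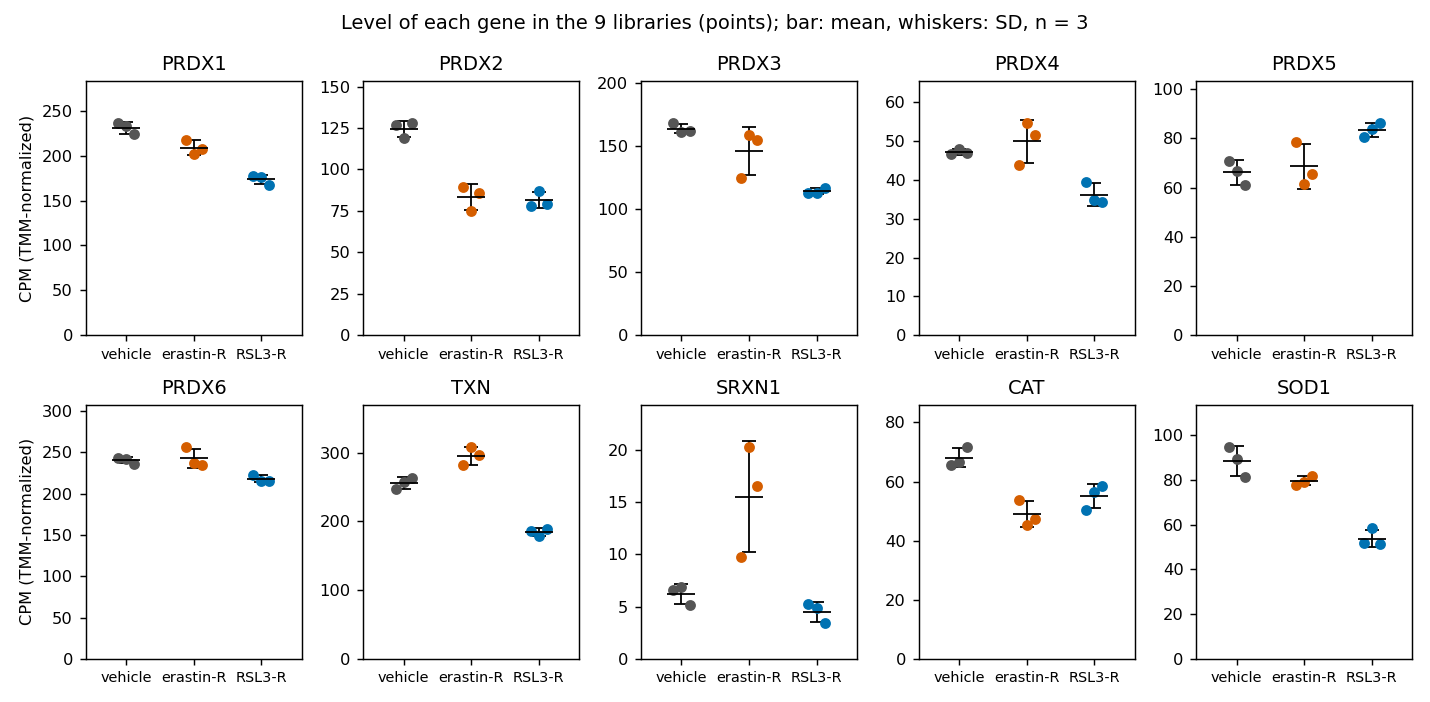
Level of each of the 10 genes, 1 panel per gene, as CPM (library-scaled counts, linear y axis from 0) in the 9 libraries, with 1 point per library, a bar for the mean of each group and whiskers for the SD (n = 3). TXN lies at 178 to 189 CPM in RSL3-R libraries, below all others, and SRXN1 at 9.77 to 20.3 CPM in erastin-R libraries, above all others.

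Against vehicle, RSL3-R cells had lower transcript levels of 8 of the 10 genes and a higher level of 1, PRDX5, at an adjusted p under 0.05 in edgeR. Among all 16188 genes tested, 24.9% were lower and 23.8% higher, 48.7% in all. The libraries of the 2 groups did not overlap for 9 of the 10 genes and for 61.9% of all genes. The median log2 fold change of the 10 genes was -0.44, against 0.0052 for all genes tested. None of the 10 passed both an adjusted p under 0.05 and an absolute log2 fold change of 1, hereafter the differential criterion, which 10.1% of all genes tested passed (6.02% higher and 4.08% lower). The same comparison for erastin-R cells gave 2 higher genes, TXN and SRXN1, and 3 lower genes, PRDX1, PRDX2 and CAT, where the shares of all genes tested were 27.1% and 26.8%, 54.0% in all. Ranges did not overlap for 6 of the 10 and for 57.9% of all genes. Only SRXN1 among the 10 passed the differential criterion there, as did 6.70% of all genes in the higher and 6.66% in the lower direction, 13.4% together. The median of the 10 was -0.06, with -0.0042 for all genes. Both comparisons use the same vehicle libraries, so they are not independent of each other.

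**Figure D2:**
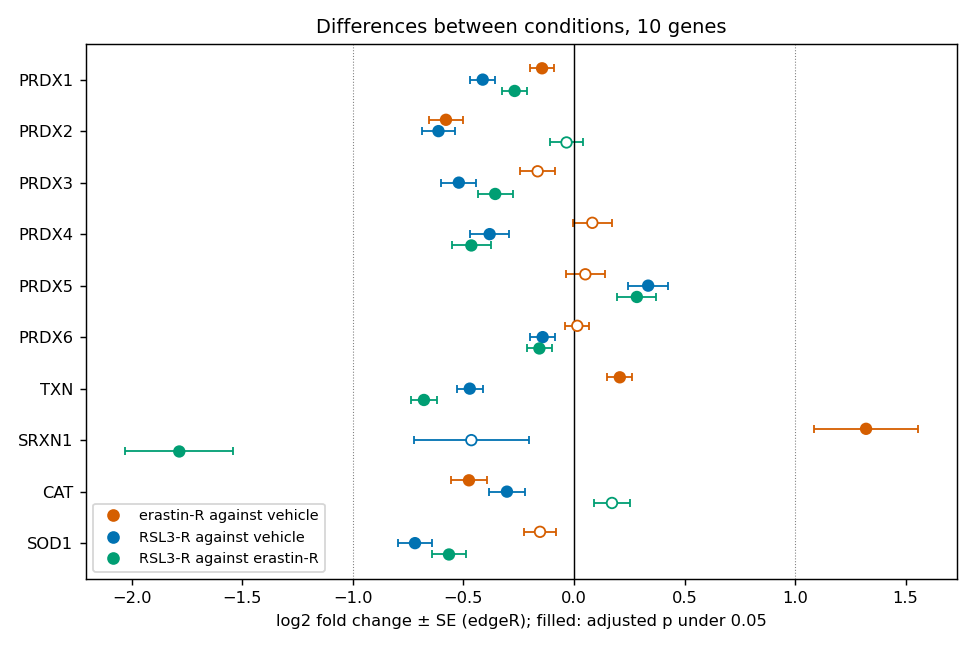
Log2 fold changes of the 10 genes (x axis, points) with their SE (whiskers) from edgeR, filled where the adjusted p is under 0.05, in erastin-R against vehicle, RSL3-R against vehicle and RSL3-R against erastin-R cells. SRXN1 has the widest whiskers and lies at 1.32 in erastin-R against vehicle, and PRDX5 alone, at 0.34, is above 0 in RSL3-R against vehicle.

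Sulfiredoxin showed the largest difference from vehicle of the 10, in erastin-R cells. SRXN1 (ENSG00000271303, GRCh38 chromosome 20, 646615 to 653370, minus strand) had 6.56, 6.92 and 5.12 CPM in the vehicle libraries, 9.77, 20.3 and 16.5 in erastin-R and 5.22, 4.91 and 3.39 in RSL3-R. All erastin-R libraries lay above all others, replicate 1 being the lowest of the 3, while the vehicle and RSL3-R ranges overlapped. The change in erastin-R cells was 1.32 ± 0.23 on the log2 scale (SE, adjusted p = 0.000305), 2.5-fold, and 1.57 without erastin-R replicate 1. RSL3-R cells stood at -0.46 ± 0.26 against vehicle (adjusted p = 0.159), which fell under 0.05 in 3 alternatives, among them the fit without erastin-R replicate 1 (adjusted p = 0.0190). Erastin-R libraries are not in this comparison, but all libraries of a fit share the estimate of the spread. The counts behind these values were 58 to 319 per library. The exon overlap with AL121758.1 given above also limits these counts and the changes computed from them.

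Thioredoxin itself moved in opposite directions in the 2 survivor groups. TXN (ENSG00000136810, chromosome 9, 110243811 to 110256640, minus strand) had 246, 257 and 264 CPM in vehicle, 281, 308 and 297 in erastin-R and 186, 178 and 189 in RSL3-R. None of the 3 ranges overlapped. It was higher by 0.21 ± 0.06 on the log2 scale (adjusted p = 0.00732) with erastin and stood at -0.47 ± 0.06 (adjusted p = 1.39e-05) with RSL3. TXN shared 3.34% of its 50-base words with other transcripts, so a small part of its reads could have been counted elsewhere or dropped.

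TXN and SRXN1 RNA rose in erastin-R cells, and CAT RNA fell in both survivor groups. The DNA before the starts of these genes was taken from RefSeq (GRCh38.p14). Each window covers 250 bases before the start and 50 after it, 5′ to 3′ on the gene's strand. The TXN window lies at chr9:110256458-110256757 (minus strand), the SRXN1 window at chr20:653151-653450 (minus) and the CAT window at chr11:34438684-34438983 (plus). Windows were found for 7 of the 10 genes, 8 in all, because PRDX5 had 2, which overlap and so hold some of the same DNA. Capitals mark TATAAA in TXN, where the matches on the 2 strands overlap, CCAAT in CAT on either strand, and TGANNNNGC in CAT.
TXN: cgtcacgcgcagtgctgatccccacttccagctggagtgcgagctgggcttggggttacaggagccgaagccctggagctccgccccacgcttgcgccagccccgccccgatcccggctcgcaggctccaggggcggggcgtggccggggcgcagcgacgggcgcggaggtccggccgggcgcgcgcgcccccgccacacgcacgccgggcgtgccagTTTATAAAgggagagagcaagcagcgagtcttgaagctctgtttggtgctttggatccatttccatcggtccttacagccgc
SRXN1: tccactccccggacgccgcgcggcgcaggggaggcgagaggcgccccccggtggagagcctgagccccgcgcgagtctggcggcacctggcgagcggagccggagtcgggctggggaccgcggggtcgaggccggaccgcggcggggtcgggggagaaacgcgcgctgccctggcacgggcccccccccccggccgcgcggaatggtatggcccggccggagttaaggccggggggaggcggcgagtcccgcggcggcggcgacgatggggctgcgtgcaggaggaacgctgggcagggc
CAT: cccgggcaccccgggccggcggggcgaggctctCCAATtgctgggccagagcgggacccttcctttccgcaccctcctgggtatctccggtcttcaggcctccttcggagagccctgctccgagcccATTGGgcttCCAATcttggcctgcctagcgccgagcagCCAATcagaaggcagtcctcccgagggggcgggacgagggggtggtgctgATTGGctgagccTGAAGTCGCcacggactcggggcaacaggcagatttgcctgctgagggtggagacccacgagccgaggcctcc
The antioxidant response element, searched as TGACNNNGC on both strands, was in 0 of the 8 windows and in 13.3% of the 35116 promoters of the table. PRDX1, PRDX6 and SOD1 had no window, and DNA outside the windows was not searched. The SRXN1 and TXN genes as annotated for the counts reach 653370 and 110256640, inside the parts of their windows before the RefSeq start. The wider core TGANNNNGC was in 3 of the 8 (PRDX2, PRDX3 and CAT) and in 41.8% of all promoters. CCAAT and TATAAA were chosen after values were seen; each was in 1 of the 8 windows, with shares of 34.6% and 11.5% over all promoters. GC made up 80.0% of the SRXN1 window, 70.0% of the TXN window and 68.0% of the CAT window.

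The cytosolic typical 2-Cys peroxiredoxins, PRDX1 and PRDX2, were lower in both survivor groups. PRDX1 (ENSG00000117450, chromosome 1, 45511036 to 45523047, minus strand) had 236, 233 and 224 CPM in vehicle, 218, 202 and 208 in erastin-R and 177, 176 and 168 in RSL3-R. The 3 groups did not overlap and the RSL3-R libraries were lowest. On the log2 scale it stood at -0.14 ± 0.06 (adjusted p = 0.0415) in erastin-R and -0.41 ± 0.06 (adjusted p = 3.62e-05) in RSL3-R libraries. The erastin-R call was lost in 10 of 15 alternatives, with adjusted p from 0.00188 to 0.137. Of the PRDX1 exon bases, 24.9% overlap MMACHC on the opposite strand, which had 100 to 238 counts, and the sources used here do not say whether counting used strand.

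PRDX2 (ENSG00000167815, chromosome 19, 12796820 to 12801859, minus strand) had 127, 119 and 128 CPM in vehicle, 89.5, 74.8 and 85.8 in erastin-R and 77.9, 87.0 and 79.4 in RSL3-R. Every survivor library lay below every vehicle library, and the survivor groups overlapped. The log2 fold changes were -0.58 ± 0.07 (adjusted p = 1.99e-05) and -0.61 ± 0.08 (adjusted p = 1.39e-05), changes of -33.1% and -34.6% in RNA. The difference between the survivor groups was -0.03 (95% interval -0.20 to 0.13, adjusted p = 0.737), and 0.02 without erastin-R replicate 1.

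PRDX3, the mitochondrial peroxiredoxin, and PRDX4, that of the endoplasmic reticulum, were lower in RSL3-R cells. PRDX3 (ENSG00000165672, chromosome 10, 119167703 to 119178833, minus strand) had 168, 161 and 162 CPM in vehicle, 125, 159 and 155 in erastin-R and 113, 113 and 117 in RSL3-R. The RSL3-R libraries lay below the other 2 groups, and erastin-R replicate 1 lay well below its group. RSL3-R cells were at -0.52 ± 0.08 on the log2 scale (adjusted p = 0.000105). The value was -0.16 ± 0.08 in erastin-R cells (adjusted p = 0.0947) and -0.06 without replicate 1.

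PRDX4 (ENSG00000123131, chromosome X, 23664262 to 23686399, plus strand) had 46.6, 48.0 and 46.9 CPM in vehicle, 43.8, 54.6 and 51.6 in erastin-R and 39.5, 34.9 and 34.3 in RSL3-R. The vehicle libraries were close together and the erastin-R libraries spread to both sides of them. RSL3-R cells had a log2 fold change of -0.38 ± 0.09 (adjusted p = 0.00290). Erastin-R cells were at 0.08 (95% interval -0.11 to 0.27, adjusted p = 0.447), and at 0.17 without erastin-R replicate 1, where the adjusted p was 0.0447.

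PRDX5, an atypical 2-Cys enzyme found in mitochondria, peroxisomes and cytosol, was the one peroxiredoxin that rose. PRDX5 (ENSG00000126432, chromosome 11, 64318088 to 64321811, plus strand) had 70.9, 66.9 and 60.9 CPM in vehicle, 78.7, 61.5 and 65.6 in erastin-R and 80.6, 84.0 and 86.1 in RSL3-R. The RSL3-R libraries lay above all others. The rise was 0.34 ± 0.09 on the log2 scale (adjusted p = 0.00653), 26.2% more RNA. In erastin-R cells it was 0.05 (95% interval -0.14 to 0.24, adjusted p = 0.654), and -0.06 without erastin-R replicate 1.

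PRDX6, the 1-Cys peroxiredoxin that also reduces phospholipid hydroperoxides, had the smallest differences from vehicle of the 10. PRDX6 (ENSG00000117592, chromosome 1, 173477266 to 173488807, plus strand) had 243, 242 and 236 CPM in vehicle, 257, 238 and 235 in erastin-R and 223, 215 and 215 in RSL3-R. The RSL3-R libraries were lowest, by a small margin. With RSL3 the log2 fold change was -0.14 ± 0.06 (adjusted p = 0.0474), a call lost in 12 of 15 alternatives (adjusted p 0.00264 to 0.281). In erastin-R cells it was 0.01 (95% interval -0.10 to 0.13, adjusted p = 0.839), and -0.03 without erastin-R replicate 1.

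Summed over the 6 peroxiredoxins, the level was 466, 454 and 445 FPKM in vehicle, 434, 407 and 418 in erastin-R and 389, 389.9 and 386 in RSL3-R, with no overlap between groups. PRDX5 made up 16.1% ± 0.821 of this sum in vehicle, 18.0% ± 1.72 in erastin-R and 23.9% ± 0.923 in RSL3-R. The PRDX2 share was 13.0% ± 0.628 in vehicle, 9.35% ± 0.596 in erastin-R and 9.95% ± 0.548 in RSL3-R. PRDX1 had the largest share in every group, 33.0%, 32.3% and 29.2% in that order, and PRDX6 held 22.1%, 24.1% and 23.5%. The size of each share depends on the annotated exon lengths, as the levels do.

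**Figure D3:**
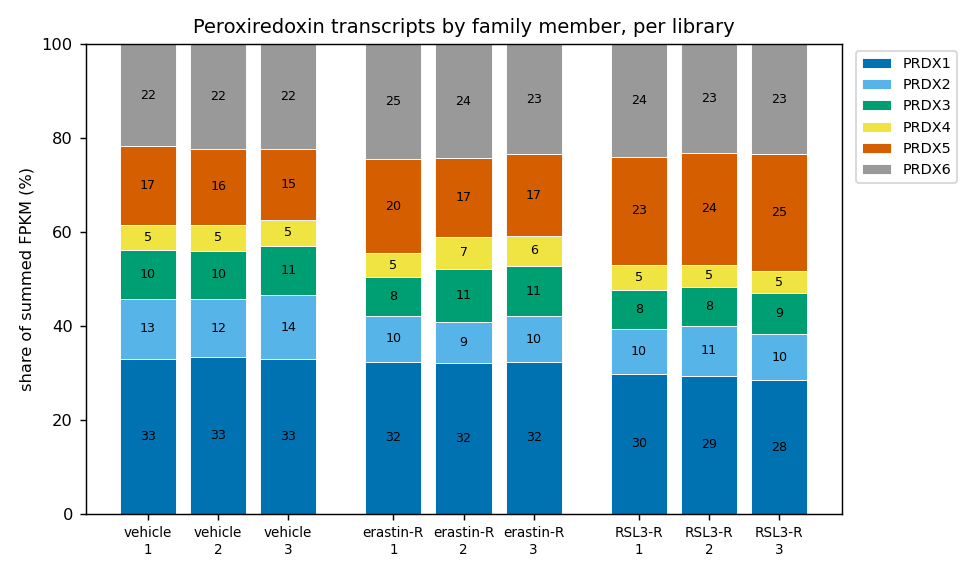
Share of each peroxiredoxin in the summed FPKM of PRDX1 to PRDX6 (percent, y axis), as 1 stacked bar per library (x axis, replicates 1 to 3 of each group). The PRDX5 share is 23.0% to 24.9% in RSL3-R libraries, above 15.2% to 16.8% in vehicle and 16.7% to 20.0% in erastin-R libraries.

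Catalase fell in both survivor groups. CAT (ENSG00000121691, chromosome 11, 34438925 to 34472062, plus strand) had 65.6, 66.8 and 71.7 CPM in vehicle, 53.9, 45.4 and 47.5 in erastin-R and 50.4, 56.6 and 58.4 in RSL3-R. Every survivor library was below every vehicle library. In percent, CAT stood at -28.1% with erastin (-0.48 ± 0.08 on the log2 scale, adjusted p = 0.000256) and -19.0% with RSL3 (-0.30 ± 0.08, adjusted p = 0.00728). The RSL3-R call was lost without RSL3-R replicate 1 (adjusted p = 0.0831).

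SOD1 had the largest fall of the 10 in RSL3-R cells. SOD1 (ENSG00000142168, chromosome 21, 31659622 to 31668931, plus strand) had 94.7, 89.4 and 81.5 CPM in vehicle, 77.8, 79.0 and 81.9 in erastin-R and 51.7, 58.3 and 51.3 in RSL3-R. The RSL3-R libraries lay far below the others, whose ranges overlapped by a narrow margin. On the log2 scale RSL3-R cells were at -0.72 ± 0.07 (adjusted p = 3.10e-06), a change of -39.3% in RNA. The value was -0.15 ± 0.07 in erastin-R cells (adjusted p = 0.0929).

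Compared directly, RSL3-R cells had lower levels than erastin-R cells of 7 of the 10 genes and a higher level of PRDX5, where 26.9% of all genes tested were lower and 22.3% higher, 49.2% in all. Ranges did not overlap for 8 of the 10 and for 55.2% of all genes. SRXN1 differed most (-1.79 ± 0.24, adjusted p = 4.38e-05, and -2.04 without erastin-R replicate 1) and alone met the differential criterion, which 3.48% of all genes met in the lower and 6.86% in the higher direction, 10.3% together. TXN (-0.68 ± 0.06, adjusted p = 6.89e-07) and SOD1 (-0.57 ± 0.08, adjusted p = 3.48e-05) came next. PRDX4 (-0.46), PRDX3 (-0.36), PRDX1 (-0.27) and PRDX6 (-0.16) were also lower, and PRDX5 was higher by 0.28 ± 0.09 (adjusted p = 0.0166). The PRDX6 call was lost in 9 of 15 alternatives (adjusted p 0.0254 to 0.443). The PRDX5 call was lost without erastin-R replicate 2 (adjusted p = 0.0816) or replicate 3 (0.0624). CAT differed by 0.17 (95% interval -0.01 to 0.35, adjusted p = 0.102), and by 0.25 without erastin-R replicate 1 (adjusted p = 0.00478).

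Of the 18 other genes of the thioredoxin, glutaredoxin and methionine sulfoxide reductase systems, 7 were higher and 3 lower in erastin-R cells, and 6 were higher and 6 lower in RSL3-R cells (median log2 fold changes 0.08 and 0.02). Calls in either direction were thus 10 and 12 of 18, where 54.0% and 48.7% of all genes were called. TXNRD1, the cytosolic thioredoxin reductase, had 526 ± 10.7 CPM in vehicle, 1471 ± 51.2 in erastin-R and 653 ± 18.2 in RSL3-R. TXNRD1 rose by 1.48 ± 0.05 with erastin (adjusted p = 2.99e-10) and by 0.31 ± 0.05 with RSL3 (adjusted p = 0.000231), both on the log2 scale. TXNIP, which binds and inhibits thioredoxin, rose in both groups (1.53 and 1.93 on the log2 scale), from 304 ± 2.25 CPM to 878 ± 29.2 and 1157 ± 6.02. TXNRD3 rose in both (1.27 and 1.08), and MSRB1, a methionine sulfoxide reductase, fell in both (-0.48 and -1.34). The mitochondrial thioredoxin TXN2 was lower in RSL3-R cells (-0.39 ± 0.10, adjusted p = 0.00444) and at 0.08 in erastin-R cells (adjusted p = 0.516), or 0.19 without erastin-R replicate 1 (adjusted p = 0.0242).

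Of 9 other tested scavengers of superoxide and peroxides, 4 were higher and 1 lower in erastin-R cells, and 3 were higher and 0 lower in RSL3-R cells (median 0.25 in each). Shares of all genes were 27.1% higher and 26.8% lower in the first comparison and 23.8% and 24.9% in the other. SOD2, the mitochondrial superoxide dismutase, had 99.1 ± 3.55 CPM in vehicle, 219.8 ± 35.5 in erastin-R and 226 ± 7.08 in RSL3-R. SOD2 rose by 1.15 ± 0.09 (adjusted p = 2.94e-07) with erastin (1.27 without erastin-R replicate 1) and by 1.19 ± 0.09 (adjusted p = 2.40e-07) with RSL3. Other genes shared 12.5% of the 50-base words of SOD2 and 14.7% of those of GPX1. GPX4 rose by 0.51 and 0.38, and GPX1, another glutathione peroxidase, was at -0.17 in each (adjusted p = 0.0651 and 0.0737). Without erastin-R replicate 1 the RSL3 value of GPX1 was again -0.17, with an adjusted p of 0.00229. No erastin-R library is in that comparison, but all libraries of a fit share the estimate of the spread. CCS, which loads copper into SOD1, was at 0.25 with erastin (adjusted p = 0.109, or 0.33 with 0.0169 without erastin-R replicate 1) and -0.02 with RSL3 (adjusted p = 0.890).

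Among 17 tested NRF2 targets outside the 10 genes, 16 were higher and 0 lower in erastin-R cells (median log2 fold change 1.12), and 8 were higher and 1 lower in RSL3-R cells (median 0.21). All genes had 27.1% higher and 26.8% lower in erastin-R, and 23.8% and 24.9% in RSL3-R. RSL3-R cells were lower than erastin-R cells for 14 of the 17, where 26.9% of all genes tested were lower and 22.3% higher. GCLM, the modifier subunit of the first enzyme of glutathione synthesis, rose by 1.35 with erastin and fell by 0.40 with RSL3 (adjusted p = 8.16e-09 and 0.000696). SLC7A11, the cystine transporter subunit, rose in both, by 2.76 and 2.53. The ferritin chains FTH1 and FTL and the haem oxygenase HMOX1 rose more in erastin-R cells (2.13, 1.52 and 1.53) than in those given RSL3 (0.73, 0.32 and 0.49). Their RSL3-R levels were below those of erastin-R cells by tests of that difference (-1.40, -1.20 and -1.04, adjusted p = 5.16e-07, 1.92e-09 and 4.04e-06). Exons of FTH1 overlap BEST1 on the opposite strand over 62.4% of their bases, and BEST1 had 13 to 33 counts. Of their 50-base words, FTH1 shared 57.4% and FTL 18.3% with transcripts of other genes, among them FTH1P7 with up to 473 counts. FTH1 was at 2.25 with erastin without erastin-R replicate 1.

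**Figure D4:**
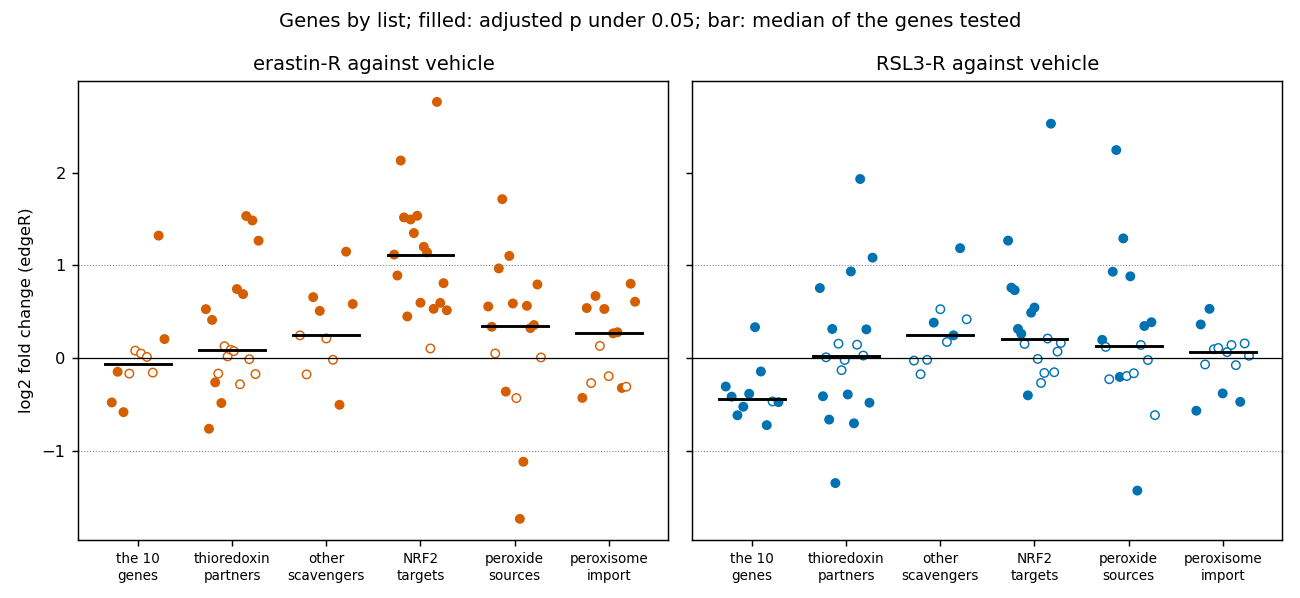
Log2 fold changes (y axis, 1 point per gene, line at the median) of the 10 genes and the 5 partner lists in the comparisons of erastin-R and RSL3-R with vehicle, filled where the adjusted p is under 0.05. NRF2 targets have a median of 1.12 in erastin-R against vehicle and 0.21 in RSL3-R against vehicle, while the 10 genes have medians of -0.06 and -0.44.

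Across the 9 libraries, the log2 CPM of PRDX1 was most like that of SOD1 (Pearson r = 0.960), PRDX4 was most like TXN (0.927), PRDX3 most like SOD1 (0.904), PRDX2 most like CAT (0.881), PRDX6 most like PRDX1 (0.864) and SRXN1 most like TXN (0.821). PRDX5 had no positive correlation with any of the others. Over all genes tested, TXN was most like WEE1 (0.996), FAF1 (0.994) and SLC30A1 (0.990), SRXN1 most like SOX12 (0.984), TRABD (0.983) and TYSND1 (0.982), and CAT most like FKBP15 (0.978), PCYOX1 (0.978) and MAPRE2 (0.976). These are descriptions of 9 libraries in 3 groups, which share the libraries and their depth.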

How the data were processed

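Poly(A) RNA of 9 libraries was sequenced on an Illumina instrument. For each library the authors deposited raw counts per gene, made per the labels with HISAT2 2.0.5 and featureCounts 1.5.0-p3, and FPKM values made from them. Gene coordinates match GRCh38 (GENCODE). Whether counting used strand is not given in the sources used here.

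Counts were tested in R 4.3.3 with edgeR 4.0.16 (TMM, filterByExpr, quasi-likelihood test, 1 fit of all 9 libraries without covariates). p-values were adjusted by Benjamini-Hochberg over the 16188 genes tested, and the thresholds were an adjusted p of 0.05 and, for the differential criterion, an absolute log2 fold change of 1. The spread between libraries was a coefficient of variation of 8.56%. The deposited FPKM served for levels between genes and peroxiredoxin shares, without a test. The test was tried on simulated counts first. Correlations used log2 CPM with a prior count of 3. Plots used matplotlib 3.10.9 under Python 3.11.15.

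The genes, lists and tests were chosen with earlier results of these data known. Besides the 10 genes and their direct partners, up to 5 genes per list meeting the differential criterion were named, by largest change, and the 3 most similar genes for CAT, SRXN1 and TXN. A single result that this rule covers is not reported here. Alternatives were DESeq2 1.42.0, upper-quartile factors, no count filter, a mean FPKM of at least 1, fits of only the 2 groups compared, a block for the replicate number, leaving out each library, calls by unadjusted p or by adjusted p alone, and counts per kilobase in place of FPKM. Counts per kilobase could not change the peroxiredoxin shares, because both measures use the same lengths and the library's scale cancels in a share.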

Additional observations from a re-analysis of the deposited data

Results flagged for a closer look

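Of the 10 genes, 8 differed between the 2 survivor groups themselves, by edgeR's test of RSL3-R against erastin-R cells. That test called 49.2% of all genes tested. On the log2 scale TXN differed by -0.68, SRXN1 by -1.79 and SOD1 by -0.57. PRDX1 differed by -0.27, PRDX3 by -0.36, PRDX4 by -0.46 and PRDX6 by -0.16, and PRDX5 by 0.28 in the other direction. The PRDX6 call was lost in 9 of 15 alternatives and the PRDX5 call in 2.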

How the results depend on the processing

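For the 10 genes in 3 comparisons, 392 of 450 recomputed results kept their direction and side of the threshold, 34 lost the call, 12 gained it and 12 changed sign. The sign changes were in values with no call. PRDX2 in RSL3-R against erastin-R was at 0.0068 with the FPKM minimum, 0.067 with upper-quartile factors, 0.0043 with only 2 groups, and -0.11 to 0.033 with libraries left out (positive without erastin-R replicate 1, 0.018, RSL3-R replicate 1, 0.033, or replicate 3, 0.021). In erastin-R against vehicle, PRDX5 was at -0.0021 and PRDX6 at -0.038 with upper-quartile factors. They were at -0.0097 and -0.0021 without vehicle replicate 3, and at -0.061 and -0.028 without erastin-R replicate 1, the lowest of the fits with libraries left out, whose highest values were 0.12 and 0.041. Without a minimum fold change the counts of the 10 genes were 2 higher and 3 lower in erastin-R, 1 and 8 in RSL3-R, and 1 and 7 in RSL3-R against erastin-R. Those of the 5 partner lists, 78 genes of which not all were tested, were 44 and 9, 26 and 12, and 8 and 31. Shares of all genes tested were 27.1% and 26.8%, 23.8% and 24.9%, and 22.3% and 26.9% in that order. Among the 10 genes, upper-quartile factors gave 5 lower in erastin-R in place of 3. They gave 2 higher in RSL3-R against erastin-R in place of 1, as did the FPKM minimum. Leaving out single libraries gave 0 to 2 there: 0 without erastin-R replicate 2 or 3, and 2 without erastin-R or RSL3-R replicate 1. Partner genes lower in erastin-R by the differential criterion numbered 1 with the FPKM minimum or only the 2 groups in the fit, and 1 to 2 with libraries left out (1 without vehicle replicate 2 or 3, erastin-R replicate 2 or 3, or RSL3-R replicate 2). Those higher in RSL3-R against erastin-R numbered 2 with an unadjusted p and 1 to 2 with libraries left out (2 without erastin-R replicate 1). Upper-quartile factors moved the median of all genes by 0.10 in that comparison, and the higher share of all calls from 45.4% to 58.9%. The cause was not tested.

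PRDX3 in erastin-R passed the threshold with upper-quartile factors (adjusted p = 0.0290) or without erastin-R replicate 2 (0.0355), and SOD1 in erastin-R with upper-quartile factors (0.0297) or without vehicle replicate 3 (0.0362). SRXN1 in RSL3-R passed with no count filter (0.0283), with only 2 groups (0.0300) or without erastin-R replicate 1 (0.0190).

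Libraries with the same replicate number did not deviate together over all genes tested (mean r = -0.0049 for 9 pairs against 0.0026 for 18 others). A pairing too weak to show in this measure is not excluded, and the labels do not say what the number means. With the replicate block, PRDX1 in erastin-R (0.0667) and PRDX6 in both RSL3-R comparisons (0.0752 and 0.0526) no longer passed, leaving 2 lower genes in erastin-R, 7 in RSL3-R and 6 in RSL3-R against erastin-R. The depth limits SRXN1 most, with 58 to 319 counts per library.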

Other observations

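Sources of peroxide were also measured. Of 16 tested genes for oxidases that make superoxide or hydrogen peroxide, 10 were higher and 3 lower in erastin-R cells, and 7 were higher and 2 lower in RSL3-R cells (median log2 fold changes 0.35 and 0.13). Of all genes, 27.1% were higher and 26.8% lower in erastin-R, and 23.8% and 24.9% in RSL3-R cells. NOX5, a calcium-dependent NADPH oxidase, had 30.8 ± 2.5 CPM in vehicle, 14.2 ± 0.218 in erastin-R and 11.5 ± 1.82 in RSL3-R (log2 fold changes -1.11 and -1.42). ERO1B, which makes hydrogen peroxide during disulfide formation in the endoplasmic reticulum, rose by 1.10 and 1.29. DUOX2 rose by 1.71 and 2.24 from 0.487 ± 0.102 CPM, a level of few reads. NOX1 was at -1.73 in erastin-R cells (adjusted p = 0.0382, or -2.80 without erastin-R replicate 1), on under 1 CPM in each group.

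The list of 13 peroxisome genes holds PEX genes and ABCD3, not all of which serve the import of catalase. Of these, 7 were higher and 2 lower in erastin-R cells, and 2 were higher and 3 lower in RSL3-R cells (medians 0.27 and 0.07). Calls in either direction were thus 9 and 5 of 13, where 54.0% and 48.7% of all genes were called. None of the 13 met the differential criterion in any of the 3 comparisons. Of all genes tested, 13.4% met it in erastin-R against vehicle, 10.1% in RSL3-R against vehicle and 10.3% in RSL3-R against erastin-R.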
